A study of Mus musculus with 9 samples.

Results

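The genes described here encode the proteins of the cytosolic ribosome, measured in bulk RNA of J774A.1 cells, a mouse macrophage line. They were chosen by symbol: protein-coding genes named Rpl or Rps with a number, with Rplp0, Rplp1, Rplp2 and Rpsa, without the Rps6k kinases and the pseudogenes, and with 10 or more counts in 3 or more libraries. Of 55487 gene identifiers, 86 protein-coding genes matched the names and 83 passed the count minimum. These 83 members hold 76 core ribosomal proteins (45 of the large subunit, including its stalk, and 31 of the small subunit), 6 paralogs and Rps19bp1, which carries the name but is a binding partner of the small subunit protein Rps19. Of the matching genes below the minimum, Rpl24, whose overlap with another gene is described below, had 2 to 13 counts a library, and Rpl10l and Rpl39l had 0 in all 9. The members nearest above it were Rpl36al with 6 to 22 counts and Rpl3l with 10 to 27.

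The 9 libraries fall into 3 groups of 3: SLC12A9 sgRNA 15, SLC12A9 sgRNA 11, and safe sgRNA, whose genotype label is WT. SLC12A9 encodes a member of the cation-chloride cotransporter family, and the series concerns its role at the lysosome. The genotype labels of both guide groups read SLC12A9 knockdown, while the series text speaks of knockout cells, and neither source says whether a group is 1 clone or a pool of cells. All cells spent 6 h in medium without serum or glutamine before RNA was taken, controls included, so no library shows fed cells. Slc12a9 itself had 48.2, 49.96 and 51.6 CPM (gene counts scaled to a common library size) in the libraries labelled sgRNA 15, 62.5, 66.2 and 67.0 with sgRNA 11, and 44.8, 53.4 and 46.9 with safe sgRNA. Its transcript was thus not lower under either guide label (log2 fold change 0.05 ± 0.05 SE, adjusted p = 0.426, with sgRNA 15, and 0.43 ± 0.05, adjusted p = 6.49e-13, with sgRNA 11), which goes against a knockdown at the level of RNA and does not bear on the protein. The groups are therefore called by the guide on their label, and every direction given below rests on those labels.

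Gene counts summed to 16405296 to 25613961 a library, with overlapping ranges in the 3 groups. All 8 macrophage markers examined were expressed, at means of 42.3 to 3266 CPM, and their sum was 7281 to 7371 CPM with sgRNA 15, 8879 to 9171 with sgRNA 11 and 5475 to 5665 with safe sgRNA. The markers of T cells (4), B cells (3), fibroblasts (3) and epithelium (4) had means of at most 1.89 CPM, and 2, 2, 1 and 3 of them had no count in any library. Lyz2 alone averaged 3564 CPM with sgRNA 15, 4509 with sgRNA 11 and 1726 with safe sgRNA, and the sum of the others was 3730 to 3774 CPM with sgRNA 15, 4453 to 4572 with sgRNA 11 and 3804 to 3833 with safe sgRNA. Of the 8 macrophage markers, 5 rose and 2 (Cd14 and Fcgr1) fell with sgRNA 15, and 6 rose and 2 (Cd14 and Cd68) fell with sgRNA 11. Of all tested genes, 62.9% were called in either direction with sgRNA 15 and 65.8% with sgRNA 11. With most genes called and only 8 markers, nothing is read from these counts. Single markers went in both directions, and their part in the results below was not tested.

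Ribosomal proteins form, with ribosomal RNA, the particle that reads mRNA and joins amino acids, and cells make them in balanced amounts because unassembled copies are degraded. Their mRNAs belong to the TOP class: they begin with a C followed by a run of pyrimidines, through which the growth regulator mTORC1 and the RNA-binding protein Larp1 set how well they are translated. In mammals each protein has 1 main gene and often many processed pseudogenes, so reads that fit several copies are hard to assign.

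The 5′ ends of members that results turn on are shown because a pyrimidine run at the start marks the TOP class: Rps18, Rps27 and Rps10 have one in these windows, and Rps2 and Rpl7l1 do not. Each window runs from 60 bases before to 20 after the annotated start in RefSeq (build GRCm38.p6), on the strand of the gene, and capitals mark runs of 8 or more pyrimidines that open with a C and the ETS factor motif CCGGAAG. The windows lie at chr17:33955646-33955725 (minus strand) for Rps18, chr3:90213629-90213708 (minus) for Rps27, chr17:24720003-24720082 (plus) for Rps2, chr17:27635225-27635304 (minus) for Rps10 and chr17:46782637-46782716 (minus) for Rpl7l1, a paralog. A missing run depends on the start used. In GENCODE the Rps2 gene begins at chr17:24718116, upstream of its window, so the window does not place Rps2 outside the TOP class.
Rps18: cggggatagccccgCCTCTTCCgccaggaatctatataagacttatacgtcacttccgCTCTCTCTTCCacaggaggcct
Rps27: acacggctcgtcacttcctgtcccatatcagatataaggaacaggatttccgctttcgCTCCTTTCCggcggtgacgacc
Rps2: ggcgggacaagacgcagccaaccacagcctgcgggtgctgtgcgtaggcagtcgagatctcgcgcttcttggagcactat
Rps10: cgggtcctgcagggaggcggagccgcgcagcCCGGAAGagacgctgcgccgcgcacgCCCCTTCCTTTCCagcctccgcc
Rpl7l1: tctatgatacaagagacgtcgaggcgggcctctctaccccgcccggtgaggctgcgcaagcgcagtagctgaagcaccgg
Promoter windows of 250 bases before to 50 after the start were available for 56 of the 76 core symbols. A run of this kind within 30 bases of a start was found in 31 of these 56 genes (55.4%) and in 20.6% of all 27025 genes of the table. CCGGAAG stood on either strand in 42.9% of them and in 9.93% of all genes, and the YY1 motif AAGATGGC in 8.93% and 3.19%. These matches describe letters in a window and not binding.

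Taken over all members, ribosomal protein transcripts made up a larger part of the RNA under both guides, and more so with sgRNA 11. The members took 5.99, 5.77 and 5.99% of gene counts in the libraries labelled sgRNA 15, 6.40, 6.44 and 6.54% with sgRNA 11, and 5.33, 5.31 and 5.32% with safe sgRNA. No library of one group overlapped with another group. Group means were 5.92 ± 0.13% with sgRNA 15, 6.46 ± 0.07% with sgRNA 11 and 5.32 ± 0.01% with safe sgRNA (SD, n = 3 each). The core proteins of the large subunit took 3.41 ± 0.07% with sgRNA 15, 3.73 ± 0.05% with sgRNA 11 and 3.11 ± 0.01% with safe sgRNA, and those of the small subunit 2.47 ± 0.06% with sgRNA 15, 2.69 ± 0.02% with sgRNA 11 and 2.17 ± 0.01% with safe sgRNA. Counts are shares of the RNA of many cells, so more cells that express a gene and more RNA per cell cannot be told apart.

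**Figure D1:**
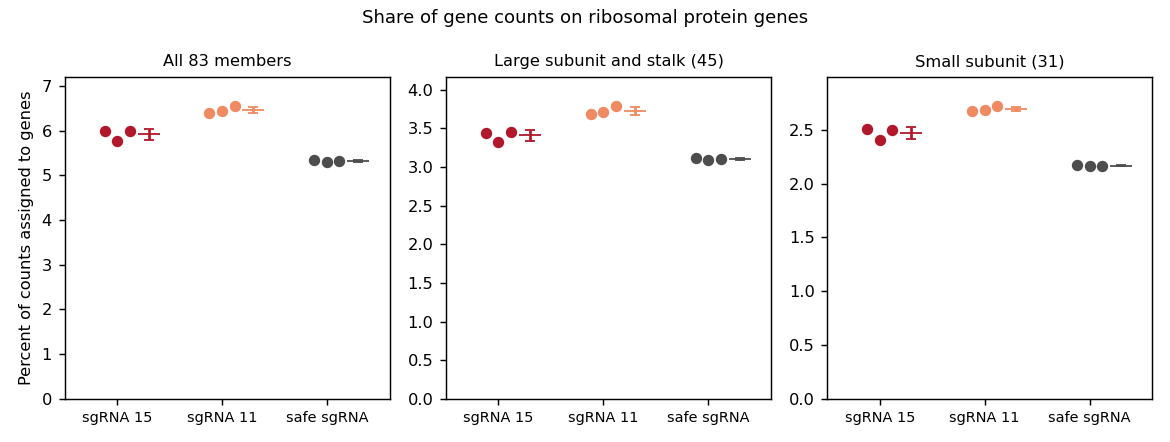
Percent of gene counts (y axis, from 0) on all 83 members, on the 45 core large subunit genes and on the 31 core small subunit genes, for sgRNA 15, sgRNA 11 and safe sgRNA. Points are libraries and bars are mean ± SD of 3; for all members the sgRNA 15 libraries sit at 5.77 to 5.99%, the sgRNA 11 libraries at 6.40 to 6.54% and the safe libraries at 5.31 to 5.33%.

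With sgRNA 15 against safe sgRNA, 47 of the 83 members rose and 10 fell at an adjusted p under 0.05, beside 32.2% of all 13453 tested genes that rose, 30.7% that fell and 62.9% called in either direction. Their median log2 fold change was 0.11, which is 1.08-fold, against 0.01 for all tested genes. Libraries of both groups did not overlap for 42 members that were higher and 10 that were lower, beside 33.5% and 32.3% of all tested genes. Of the core genes, 26 of 45 in the large subunit rose and 3 fell, and 20 of 31 in the small subunit rose and 3 fell. The shifts were thus common and small: 2 members, Rps10 and Rpl36al, moved by over 1 on the log2 scale. Changes of single genes below are log2 fold changes ± SE from edgeR's quasi-likelihood test, with the adjusted p-value after each where it is given.

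With sgRNA 11 against safe sgRNA, 69 of the 83 members rose and 5 fell, beside 33.3% and 32.4% of all tested genes, of which 65.8% were called in either direction. The median log2 fold change was 0.26, or 1.20-fold, against 0.01 for all tested genes, and no member passed 1 on the log2 scale. The libraries did not overlap for 70 members that were higher and 6 that were lower, beside 34.3% and 33.3% of all tested genes. In the large subunit 39 of 45 core genes rose and 0 fell, and in the small subunit 29 of 31 rose and the other 2, Rps10 and Rps2, fell. No large subunit gene fell at an unadjusted p under 0.05 either (0 by edgeR), and DESeq2 and limma-voom also gave 0. The 0 did not hold in edgeR with GC and length offsets, where Rpl8 was called lower (-0.04, adjusted p = 0.0297). Rpl8 was also called lower there with a replicate block added (-0.04, 0.022). In the main fit Rpl27 was the only one of these 45 with a log2 fold change below 0 (-0.01 ± 0.02, adjusted p = 0.642).

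Set directly against sgRNA 11, sgRNA 15 had 61 members lower and 0 higher, beside 15.5% and 18% of all tested genes, 33.5% in either direction. The count of higher members was also 0 at an unadjusted p under 0.05 in edgeR, and 0 by DESeq2 and limma-voom. The median difference was -0.14 on the log2 scale, against 0.01 for all tested genes, and in 68 members all libraries labelled sgRNA 15 lay below all those labelled sgRNA 11, beside 20.0% of tested genes, and in 0 all lay above them, beside 22.8%. The group means ran sgRNA 11 above sgRNA 15 above safe sgRNA in 60 of 83 members, beside 24.8% of all tested genes. The comparisons with safe sgRNA share its 3 libraries: 47 members rose with both guides (26.0% of all tested genes did), 5 fell with both (25.7%), 3 were called in opposite directions (1.88%), and 19 rose with sgRNA 11 and were not called with sgRNA 15 (6.47%). Of the 24 core genes with a main transcript under 600 bases, 10 rose with sgRNA 15 and 21 with sgRNA 11, and of the 52 longer ones 36 rose with sgRNA 15 and 47 with sgRNA 11. Across the 76 core genes, which share the same libraries, the sgRNA 15 to sgRNA 11 difference had a Pearson correlation of 0.39 with log2 transcript length and of 0.14 with copy share, given as descriptions.

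**Figure D2:**
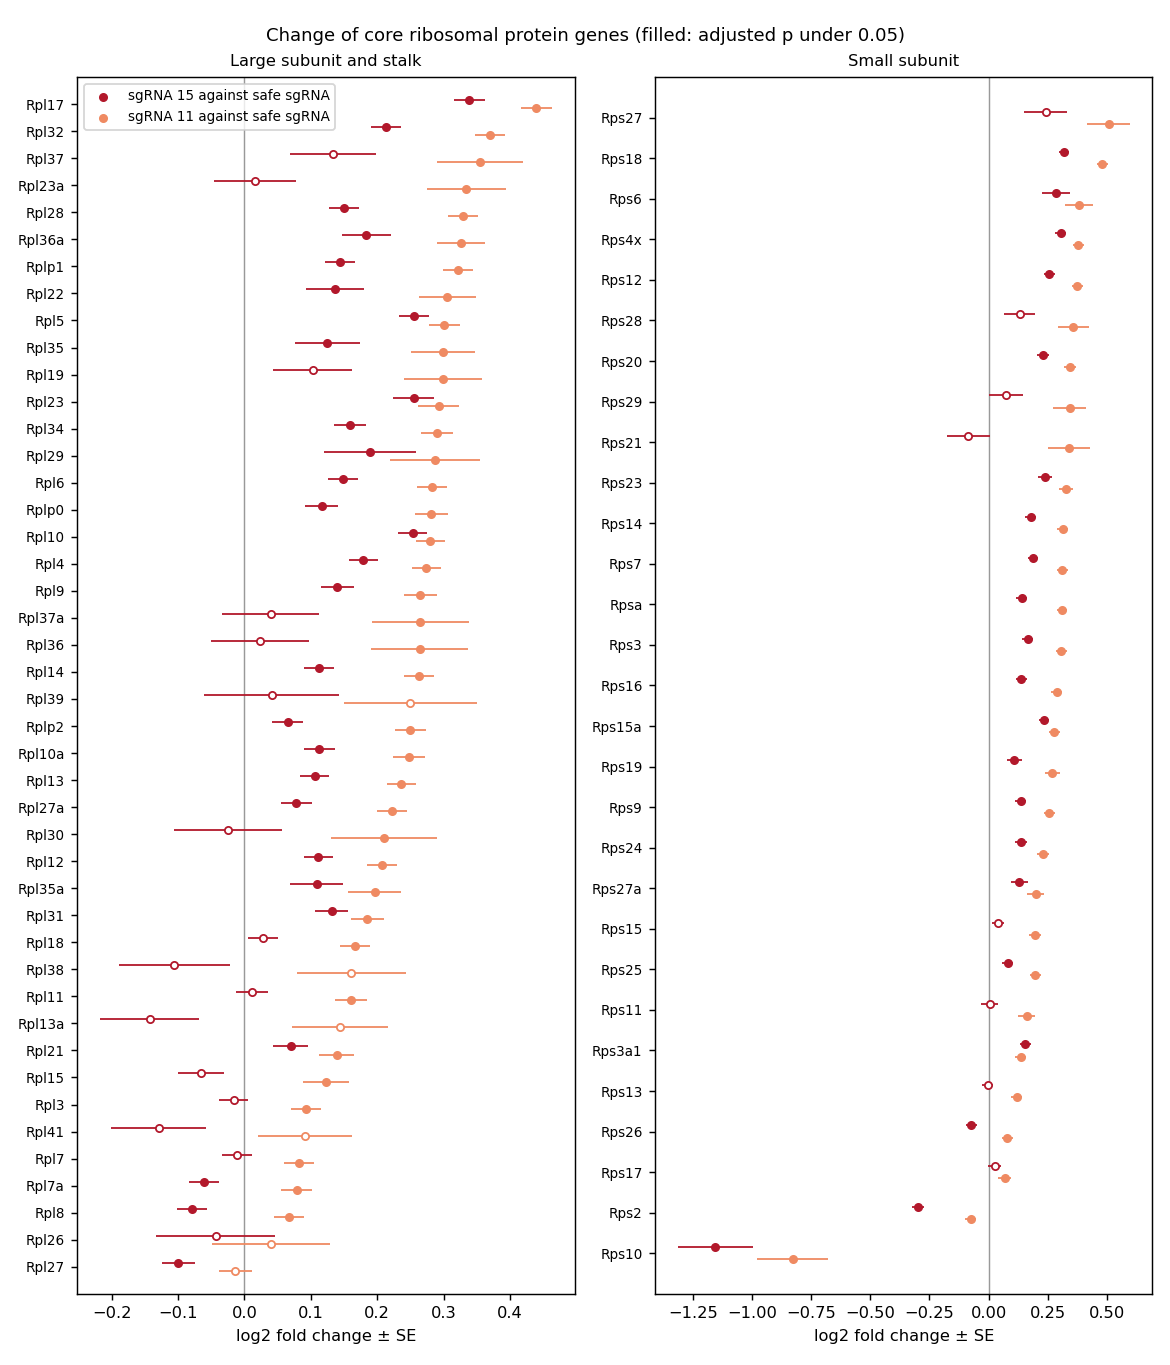
log2 fold change ± SE (x axis) of core ribosomal protein genes for sgRNA 15 (red) and sgRNA 11 (orange) against safe sgRNA, sorted by the sgRNA 11 value; filled points have an adjusted p under 0.05. The sgRNA 11 points lie to the right of the sgRNA 15 points in nearly every row, and Rps10 lies far to the left of all others in the small subunit panel, which has a wider axis.

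The stalk is the arm of the large subunit that recruits translation factors, with Rplp0 at its base and Rplp1 and Rplp2 as its mobile proteins. Rplp1 had the highest level per kb of all core genes (3163 CPM per kb of main transcript). Its values were 1568, 1521 and 1590 CPM with sgRNA 15, 1721, 1759 and 1812 with sgRNA 11, and 1386, 1416 and 1432 with safe sgRNA, without overlap between groups. It rose by 0.14 ± 0.02 with sgRNA 15 (adjusted p = 3.73e-08) and by 0.32 ± 0.02 with sgRNA 11 (7.14e-23). Rplp0 rose by 0.12 ± 0.02 with sgRNA 15 and 0.28 ± 0.02 with sgRNA 11 (4.62e-05 and 2.99e-15). Rplp2 rose by 0.06 ± 0.02 with sgRNA 15 and 0.25 ± 0.02 with sgRNA 11 (0.0124 and 2.16e-16), and its smaller rise with sgRNA 15 lost its call when any 1 safe library was left out (log2 fold change 0.05 to 0.06), or sgRNA 15 replicate 3 was (0.02, adjusted p = 0.512). That call also ended with DESeq2 (0.055, 0.0668) and with GC and length offsets (0.035, 0.0833), with the replicate block added too (0.035, 0.0769). All 3 were lower with sgRNA 15 than with sgRNA 11, by -0.16 to -0.18.

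Among the other large subunit genes, Rpl17 moved most. The gene encodes a protein that lines the exit of the tunnel that new proteins leave by, and it had 779, 753 and 776 CPM with sgRNA 15, 832, 794 and 847 with sgRNA 11, and 624, 604 and 596 with safe sgRNA. Both guide groups lay wholly above the safe libraries (0.34 ± 0.02 with sgRNA 15, adjusted p = 9.26e-23, and 0.44 ± 0.02 with sgRNA 11, 9.78e-30).

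Rpl5 and Rpl11 bind together to a small ribosomal RNA and, when free of ribosomes, to the ligase Mdm2. Rpl5 rose with both guides, to 917, 862 and 891 CPM with sgRNA 15 and 932, 907 and 917 with sgRNA 11, against 754, 745 and 737 with safe sgRNA. Its log2 fold change was 0.26 ± 0.02 with sgRNA 15 (2.97e-17) and 0.30 ± 0.02 with sgRNA 11 (4.94e-21). The direct difference between the guides was -0.05 ± 0.02 and was not called (adjusted p = 0.116). Rpl11 had 739, 699 and 770.3 CPM with sgRNA 15, 813, 802 and 831 with sgRNA 11, and 745, 721 and 723 with safe sgRNA. It rose with sgRNA 11 (0.16 ± 0.02, 2.79e-08), was not called with sgRNA 15 (0.01 ± 0.02, 0.702), and differed between the guides (-0.15 ± 0.02, 6.37e-07).

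A few large subunit genes went down or opposite ways. Rpl27 fell with sgRNA 15 (-0.10 ± 0.02, adjusted p = 0.000305). Rpl8, a protein near the peptide-joining centre, had 1959, 1936 and 2042 CPM with sgRNA 15, 2129, 2185 and 2257 with sgRNA 11, and 2039, 2102 and 2131 with safe sgRNA, so each guide group overlapped with the safe group. It was called lower with sgRNA 15 (-0.08 ± 0.02, 0.00176) and higher with sgRNA 11 (0.07 ± 0.02, 0.00744), but a correction for GC content and length turned the second to -0.04 (0.0297), scaling by library size alone ended the first (-0.04, 0.0863), and the second also ended without sgRNA 11 replicate 3 (0.04, 0.142). Rpl7a had 1111, 1114 and 1118 CPM with sgRNA 15, 1205, 1197 and 1280 with sgRNA 11, and 1147, 1147 and 1193 with safe sgRNA. Its opposite calls (-0.06 ± 0.02 with sgRNA 15, 0.0169, and 0.08 ± 0.02 with sgRNA 11, 0.00192) ended under library size scaling for sgRNA 15 (-0.02, 0.355) and without sgRNA 11 replicate 3 for sgRNA 11 (0.04, 0.121). The direct differences between the guides were -0.15 ± 0.02 for Rpl8 and -0.14 ± 0.02 for Rpl7a (1.07e-07 and 4.32e-07).

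In the small subunit, Rps18 stood out among the risen genes. It sits in the head of the subunit, and it had 861, 841 and 858 CPM with sgRNA 15, 942, 938 and 984 with sgRNA 11, and 671, 693 and 688 with safe sgRNA. All groups were separate (0.32 ± 0.02 with sgRNA 15, 2.91e-22, and 0.48 ± 0.02 with sgRNA 11, 1.83e-33, with -0.16 ± 0.02, 4.49e-09, between the guides). Rps4x, the X-linked protein of the subunit's body, rose by 0.30 ± 0.02 with sgRNA 15 and 0.38 ± 0.02 with sgRNA 11 (1.91e-21 and 4.33e-27). Rps6, the substrate of the S6 kinases downstream of mTORC1, rose by 0.28 ± 0.06 with sgRNA 15 and 0.38 ± 0.06 with sgRNA 11 (0.00469 and 0.000942), with no call between the guides (-0.10 ± 0.06, 0.262). Rpsa, a small subunit protein also known as the laminin receptor, had 2946, 2976 and 2908 CPM with sgRNA 15, 3279, 3225 and 3436 with sgRNA 11, and 2615, 2707 and 2695 with safe sgRNA. The log2 fold changes were 0.14 ± 0.02 with sgRNA 15 (6.05e-08) and 0.31 ± 0.02 with sgRNA 11 (2.66e-22). Rps27a, made as a fusion with ubiquitin, rose by 0.13 ± 0.04 with sgRNA 15 and 0.20 ± 0.04 with sgRNA 11 (0.00621 and 0.000207). Its sgRNA 15 call ended without safe sgRNA replicate 2 (0.11, 0.0826), sgRNA 11 replicate 3 (0.12, 0.0539), or sgRNA 15 replicate 1 or 3 (0.12, 0.0588, and 0.10, 0.0962), with limma-voom (0.125, 0.0504), and in a fit of the compared groups alone (0.129, 0.0533).

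In the small subunit, Rps21, Rps29 and Rps27 were called higher with sgRNA 11 and were not called with sgRNA 15, and the direct difference between the guides was called for Rps21 and Rps29 and not for Rps27. Rps21 had 411, 352 and 414 CPM with sgRNA 15, 476, 543 and 560 with sgRNA 11, and 435, 399 and 412 with safe sgRNA. The sgRNA 15 and safe libraries overlapped (-0.09 ± 0.09, 0.456), the sgRNA 11 libraries lay above both (0.34 ± 0.09, 0.0137), and the guides differed by -0.43 ± 0.09 (0.0111), the largest such difference in a core gene. The sgRNA 11 call was lost without safe sgRNA replicate 2 (0.30, 0.0554) or sgRNA 11 replicate 3 (0.28, 0.0551). Rps29 had -0.27 ± 0.07 between the guides (0.0272), a call that ended without sgRNA 11 replicate 2 or 3 (-0.27, 0.0742, and -0.24, 0.0861) or sgRNA 15 replicate 3 (-0.29, 0.0529), and in a fit of the compared groups alone (-0.28, 0.062). Rps27, the zinc-binding protein with the largest rise under sgRNA 11 of any core gene, had 424, 357 and 404 CPM with sgRNA 15, 474, 445 and 502 with sgRNA 11, and 363, 323 and 312 with safe sgRNA. Against safe sgRNA, the log2 fold change was 0.24 ± 0.09 with sgRNA 15 (0.0561) and 0.51 ± 0.09 with sgRNA 11 (0.00226). Between the guides it was -0.27 ± 0.09 (0.0672).

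Rps2 and Rps10, both at the mRNA entry side of the small subunit, were the core genes that fell with both guides. Rps2 had 535, 495 and 530 CPM with sgRNA 15, 599, 599.95 and 620.5 with sgRNA 11, and 639, 642 and 637 with safe sgRNA. No groups overlapped (-0.30 ± 0.02 with sgRNA 15, 3.47e-19, and -0.08 ± 0.02 with sgRNA 11, 0.00465), but the fall with sgRNA 11 was not called under library size scaling (-0.04, 0.103) or without sgRNA 11 replicate 1 (-0.06, 0.0514). Its pseudogene Rps2-ps10 was counted higher than the gene, at a mean of 705.5 CPM with sgRNA 15, 769 CPM with sgRNA 11 and 801 CPM with safe sgRNA, and fell with sgRNA 15 (-0.18). Rps10 had 3.62, 2.98 and 3.81 CPM with sgRNA 15, 2.99, 5.46 and 4.66 with sgRNA 11, and 7.62, 6.36 and 9.06 with safe sgRNA. Its log2 fold change was -1.16 ± 0.16 with sgRNA 15 (2.46e-09) and -0.83 ± 0.15 with sgRNA 11 (2.21e-06). Its levels were the lowest of any core gene, at 5.83 CPM per kb against a median of 924, so the fall rests on few reads. Over all libraries, Rps10 averaged 5.17 CPM, and its pseudogenes Rps10-ps1 and Rps10-ps2 averaged 10.4 and 11.65 CPM. Rps10-ps2 rose with both guides (0.28 with sgRNA 15 and 0.42 with sgRNA 11). Rps10-ps1 was not called with sgRNA 15 (-0.04) and rose with sgRNA 11 (0.29, adjusted p = 0.0491). The fall is thus one of reads assigned to Rps10, and whether its mRNA fell was not tested. Rps26, at the mRNA exit side, was called lower with sgRNA 15 (-0.07 ± 0.02, 0.00672) and higher with sgRNA 11 (0.08 ± 0.02, 0.00265). Those calls ended under library size scaling (-0.04, 0.182) and without sgRNA 11 replicate 3 (0.04, 0.189).

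**Figure D3:**
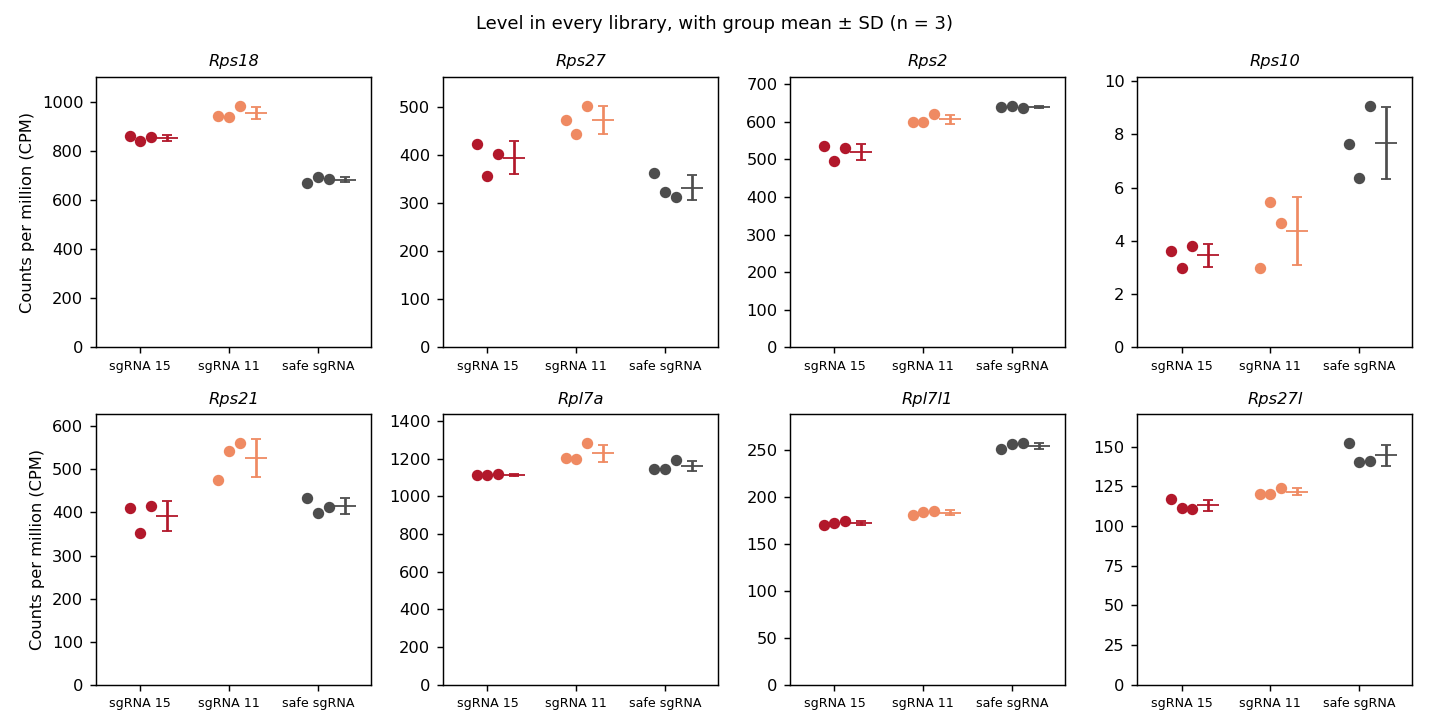
CPM (y axes, from 0) of 8 members in every library of sgRNA 15, sgRNA 11 and safe sgRNA, with mean ± SD of 3 beside the points. Rps18 is higher under both guides, Rps2, Rps10, Rpl7l1 and Rps27l are lower, all sgRNA 11 libraries of Rps27 and Rps21 lie above the safe libraries, and Rpl7a lies above the safe mean with sgRNA 11 and below it with sgRNA 15.

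Of the 6 paralogs, 1 rose and 3 fell with sgRNA 15, beside 32.2% and 30.7% of all tested genes, and 1 rose and 2 fell with sgRNA 11, beside 33.3% and 32.4%, so these few genes are described singly. Rpl7l1, whose yeast relative acts in assembly of the large subunit, had 170, 173 and 174 CPM with sgRNA 15, 181, 184 and 185 with sgRNA 11, and 251, 256 and 257 with safe sgRNA. The log2 fold changes were -0.56 ± 0.03 with sgRNA 15 (1.66e-32) and -0.47 ± 0.03 with sgRNA 11 (4.43e-28). Its partner Rpl7 was not called with sgRNA 15 (-0.01 ± 0.02, 0.683) and rose with sgRNA 11 (0.08 ± 0.02, 0.000777). Rps27l, a paralog of Rps27 known as a target of the tumour suppressor Trp53, had 117, 111 and 110.5 CPM with sgRNA 15, 120, 120 and 124 with sgRNA 11, and 152, 140 and 141 with safe sgRNA. Against safe sgRNA, the log2 fold change was -0.36 ± 0.03 with sgRNA 15 (2.41e-16) and -0.25 ± 0.03 with sgRNA 11 (1.39e-10). Rps27l thus lay wholly below the safe libraries where Rps27 lay above them with sgRNA 11.

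Rps27rt, a retrocopy, moved with Rps27: 10.7, 10.6 and 10.7 CPM with sgRNA 15, 11.8, 13.7 and 12.7 with sgRNA 11, and 8.58, 7.78 and 8.14 with safe sgRNA. Its log2 fold change was 0.38 ± 0.10 with sgRNA 15 (0.000748) and 0.63 ± 0.10 with sgRNA 11 (2.88e-08). The first 120 bases of the 255-base reading frames of these 3 genes, from GENCODE transcripts of build mm10, are shown because they set which reads could be assigned to which gene; capitals mark positions where Rps27l differs from Rps27. The genes lie at chr3:90212522-90213651 (minus strand) for Rps27, chr9:114982366-114982739 (minus) for Rps27rt and chr9:66946086-66949516 (plus) for Rps27l.
Rps27: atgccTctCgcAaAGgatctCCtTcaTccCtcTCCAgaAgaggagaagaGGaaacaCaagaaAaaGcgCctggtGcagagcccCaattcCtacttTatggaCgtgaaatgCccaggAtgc
Rps27rt: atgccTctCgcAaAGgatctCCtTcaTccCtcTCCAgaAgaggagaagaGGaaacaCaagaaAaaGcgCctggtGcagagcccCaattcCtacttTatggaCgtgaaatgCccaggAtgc
Rps27l: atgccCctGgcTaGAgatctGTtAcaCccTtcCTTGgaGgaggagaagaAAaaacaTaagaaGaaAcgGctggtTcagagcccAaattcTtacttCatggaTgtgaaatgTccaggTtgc
The frames of Rps27 and Rps27rt had 0 differences, so a read inside the frame fits both genes and the values of both are uncertain. Rps27l differed at 61 of 255 bases (76.1% identity), 28 of them in the stretch shown.

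The other paralogs were low. Rpl22l1, a paralog of Rpl22 that takes its place in some cells, had 14.4, 12.1 and 13.7 CPM with sgRNA 15, 16.3, 17.5 and 15.0 with sgRNA 11, and 15.8, 13.9 and 14.8 with safe sgRNA. It was called only between the guides (-0.28 ± 0.09, 0.00751), and not without replicate 2 of sgRNA 11 or of sgRNA 15 (-0.23, 0.0545, and -0.21, 0.0931), while Rpl22 rose by 0.14 ± 0.04 with sgRNA 15 and 0.31 ± 0.04 with sgRNA 11 (0.0138 and 1.92e-05). Rpl22's sgRNA 15 call ended without safe sgRNA replicate 2 or 3 (0.11, 0.0578, and 0.09, 0.0735) or sgRNA 15 replicate 3 (0.11, 0.0754). Rpl36al had 0.25 to 0.60 CPM with sgRNA 15, 0.35 to 0.78 with sgRNA 11 and 0.88 to 1.02 with safe sgRNA, and fell with sgRNA 15 (-1.19 ± 0.40, 0.00766), though not without sgRNA 15 replicate 2 (-0.89, 0.0829). Its partner Rpl36a rose by 0.18 ± 0.04 with sgRNA 15 and 0.33 ± 0.04 with sgRNA 11. Rpl3l, the form of Rpl3 found in muscle, had 1.30, 0.67 and 0.79 CPM with sgRNA 15, 1.06, 0.78 and 0.72 with sgRNA 11, and 0.72, 0.50 and 0.59 with safe sgRNA. It was not called with sgRNA 15 (0.58 ± 0.37, 0.164) or sgRNA 11 (0.48 ± 0.37, 0.2497), although all sgRNA 11 libraries lay above the safe ones. Rps19bp1 fell with both guides (-0.29 ± 0.06 with sgRNA 15, 1.04e-05, and -0.35 ± 0.06 with sgRNA 11, 1.32e-07).

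Of the ribosomal proteins that the naming rule leaves out, Fau and Rack1 moved with the members. Fau, a fusion whose tail is a small subunit protein, had 828, 782 and 857 CPM with sgRNA 15, 925, 934 and 970 with sgRNA 11, and 689, 663 and 687 with safe sgRNA. The log2 fold changes were 0.27 ± 0.02 with sgRNA 15 and 0.47 ± 0.02 with sgRNA 11. Rack1, a scaffold on the small subunit, rose by 0.23 ± 0.02 with sgRNA 15 and 0.38 ± 0.02 with sgRNA 11.

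Reads that align to several places or to several genes were not assigned by the authors' counting, and this touches these genes more than most. Copy share is the percent of 50-base stretches of a gene's main transcript that also occur in annotated transcripts of other genes; no source used here gives the read length. It was over 10% in 75 of 83 members (90.4%), beside 8.02% of 11188 other tested protein-coding genes, with medians of 51.7% and 0. With 100-base stretches the members' median was 36.8%. Reads aligned to more than 1 place were 6.27 to 6.61% of all reads with sgRNA 15, 6.20 to 6.66% with sgRNA 11 and 6.39 to 6.69% with safe sgRNA. Ambiguous reads were 6.51 to 6.56% with sgRNA 15, 6.36 to 6.42% with sgRNA 11 and 6.32 to 6.48% with safe sgRNA. The first tally overlapped between groups and the second was slightly higher with sgRNA 15, and its part in the results was not tested.

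Core genes with a copy share of 50% or more and those with less mostly rose. Of the 41 core genes with a copy share of 50% or more, 24 rose with sgRNA 15 and 37 with sgRNA 11, and of the 35 with less, 22 rose with sgRNA 15 and 31 with sgRNA 11. With sgRNA 15 the medians of these sets were 0.13 and 0.12, and with sgRNA 11 they were 0.26 and 0.27. Core genes with a copy share of 10% or less included Rps15a, Rps20 and Rps3, which rose with both guides, and Rpl8, described above. The main transcripts of Rps15a and Rps20 are long, at 5130 and 3706 bases against a core median of 774.5. These 2 transcripts share stretches with 64 and 50 other genes, so their low copy share does not mean that few reads fit other copies. All members with a copy share of 10% or less, the paralogs Rpl7l1 and Rpl3l and Rps19bp1 included, took 0.615 ± 0.011% of counts with sgRNA 15, 0.670 ± 0.008% with sgRNA 11 and 0.568 ± 0.008% with safe sgRNA. Of 119 tested pseudogenes named after ribosomal proteins, 10 rose and 1 fell with sgRNA 15, beside 32.2% and 30.7% of all tested genes. With sgRNA 11, 27 rose and 0 fell, beside 33.3% and 32.4%. Both risen counts were thus smaller shares than over all tested genes. The medians were 0.09 with sgRNA 15 and 0.28 with sgRNA 11, against 0.01 for all tested genes. The count of 0 fallen held at an unadjusted p under 0.05 and with DESeq2 and limma-voom. Pseudogenes of this kind drew 2.10 to 2.20 counts per 100 member counts with sgRNA 15, 2.03 to 2.29 with sgRNA 11 and 2.27 to 2.52 with safe sgRNA. Their counts summed to 20654 to 29883 a library with sgRNA 15, 26015 to 29946 with sgRNA 11 and 25217 to 31086 with safe sgRNA. Rps2-ps10 alone had 12099 to 16422 with sgRNA 15, 14300 to 17042 with sgRNA 11 and 15590 to 19229 with safe sgRNA. The ratio thus rests largely on 1 pseudogene and does not describe the others.

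Overlap with other annotated genes went with low levels in several members. Over 50% of the main transcript lay in exons of another gene for Rps10 (63.6%), Rpl13a (59.3%), Rpl23a (55.4%), Rpl35 (68.3%) and Rpl36al (63.1%), whose levels were 5.83, 20.9, 74.0, 67.1 and 1.26 CPM per kb. The protein-coding genes that share exons with Rps10, Rpl13a and Rpl36al, RPS10-NUDT3, Gm45713 and Gm49383, had 0 counts in every library. Those of Rpl35 and Rpl23a had counts. Rpl35 shares exons with Arpc5l (mean 132 CPM), which rose (0.81 with sgRNA 15 and 0.91 with sgRNA 11), and with Wdr38 (0.12 CPM). Rpl23a shares exons with Tlcd1 (mean 2.76 CPM), which fell (-0.94 with sgRNA 15 and -0.55 with sgRNA 11). Their part in the values of Rpl35 and Rpl23a was not tested. Rpl5, with 46.6% overlap, still had 416 CPM per kb, and Rpl26, with none, had 65.2. Below the count minimum, Rpl24 had 71.5% of its main transcript in exons of another gene and a copy share of 77.7%, at 0.39 CPM per kb. Rpl13a, which in human monocytes also silences translation of inflammatory mRNAs, had 21.0, 17.9 and 20.7 CPM with sgRNA 15, 23.0, 24.4 and 25.0 with sgRNA 11, and 23.4, 22.0 and 19.8 with safe sgRNA, and was called only between the guides (-0.29 ± 0.07, 0.00104). Rpl23a also differed between the guides (-0.32 ± 0.06, 2.08e-05), but it was called higher with sgRNA 11 (0.33 ± 0.06, 2.69e-06). It was not called with sgRNA 15 (0.02 ± 0.06, 0.839). The 9 core genes with an overlap of 10% or more and the 67 with less had medians of 0.10 and 0.13 with sgRNA 15, and of 0.30 and 0.26 with sgRNA 11. Whether lost reads account for the low levels was not tested.

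**Figure D4:**
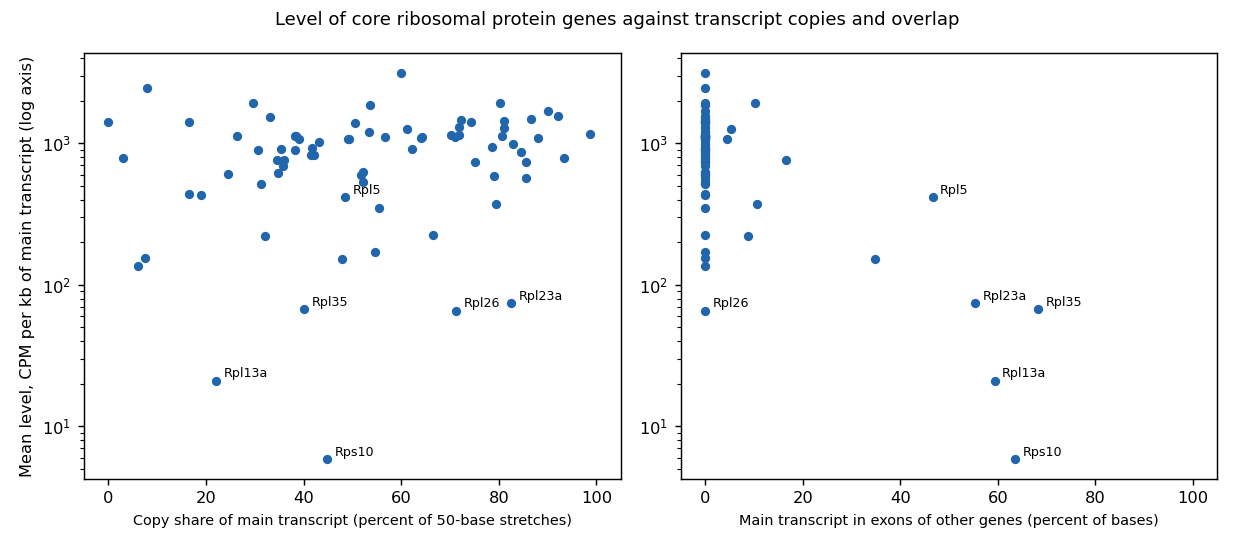
Mean level of each core gene over 9 libraries (y axis, CPM per kb of main transcript, log axis) against its copy share (left) and against the share of its main transcript in exons of other genes (right). The Pearson correlation of log2 level with copy share is 0.18 over 76 genes, and Rps10, Rpl13a, Rpl23a and Rpl35 combine an overlap above 50% with levels of 5.83 to 74.0 CPM per kb.

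The machinery that builds ribosomes went the other way. Of 65 tested genes of a ribosome biogenesis list, 60 fell and 1 rose with sgRNA 15 (median -0.55), and 62 fell and 1 rose with sgRNA 11 (median -0.66), beside the 30.7% and 32.4% of all tested genes that fell with these guides. Ddx21, an RNA helicase of the nucleolus, had 210.2, 215 and 205 CPM with sgRNA 15, 195, 189 and 194 with sgRNA 11, and 391, 389 and 374 with safe sgRNA. Nop58, a core protein of the particles that modify ribosomal RNA, had log2 fold changes of -0.89 with sgRNA 15 and -1.14 with sgRNA 11, and Nop2, an RNA methyltransferase, values of -1.13 with sgRNA 15 and -1.17 with sgRNA 11. Of 77 mitochondrial ribosomal protein genes, 52 fell and 4 rose with sgRNA 15 (median -0.26), and 55 fell and 5 rose with sgRNA 11 (median -0.28). Among 16 tested chaperones and importers of ribosomal proteins, 11 fell and 1 rose with sgRNA 15 and 12 fell and 2 rose with sgRNA 11, with Ncl, the nucleolar protein nucleolin, at 899, 880 and 882 CPM with sgRNA 15, 734, 755 and 744 with sgRNA 11, and 1869, 1844 and 1761 with safe sgRNA. Grwd1, which escorts Rpl3, fell by 1.11 with sgRNA 15 and 1.20 with sgRNA 11, and Tnpo1, an importer, by 0.58 with sgRNA 15 and 0.77 with sgRNA 11.

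**Figure D5:**
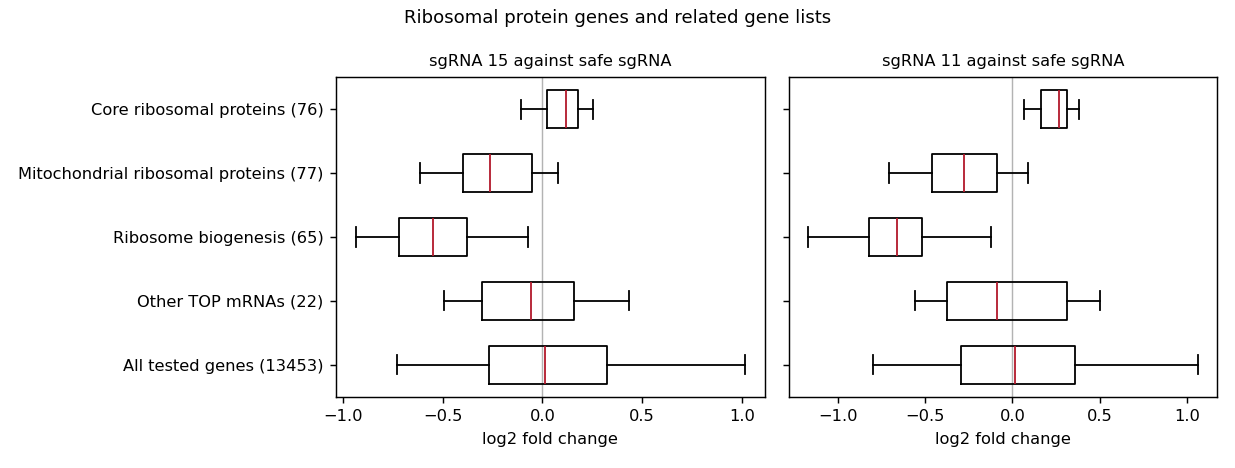
Distribution of log2 fold changes (x axis) for core ribosomal protein genes, 3 related lists and all tested genes, for sgRNA 15 (left) and sgRNA 11 (right) against safe sgRNA; boxes span the quartiles with the median in red, and whiskers the 5th to 95th percentile. Core ribosomal proteins lie mostly above 0 in a narrow band, ribosome biogenesis genes mostly below, and the other TOP mRNAs on both sides.

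Of 22 other mRNAs of the TOP class, 7 rose and 12 fell with sgRNA 15 and 9 rose and 12 fell with sgRNA 11. Of all tested genes, 32.2% rose and 30.7% fell with sgRNA 15, and 33.3% rose and 32.4% fell with sgRNA 11, so nothing is read from the risen counts of this list and of the lists that follow. Eef2, the elongation factor that moves the ribosome along, had 4739, 4788 and 4777 CPM with sgRNA 15, 5449, 5409 and 5554 with sgRNA 11, and 3048, 3131 and 3182 with safe sgRNA. Against safe sgRNA, the log2 fold change was 0.61 ± 0.02 with sgRNA 15 and 0.81 ± 0.02 with sgRNA 11. Eef1a1, which brings amino acids to the ribosome, rose by 0.56 with sgRNA 15 and 0.64 with sgRNA 11, while Hnrnpa1, an RNA-binding protein, fell by 0.78 with sgRNA 15 and 0.81 with sgRNA 11. The chaperonin subunit Cct4 fell by 0.49 with sgRNA 15 and 0.60 with sgRNA 11. Of 20 regulators of such mRNAs, 6 rose and 10 fell with sgRNA 15 and 5 rose and 11 fell with sgRNA 11. Eif4ebp1, a repressor of cap-dependent translation, had 166, 165 and 164 CPM with sgRNA 15, 171, 167 and 179 with sgRNA 11, and 53.4, 54.1 and 54.9 with safe sgRNA. Its log2 fold change was 1.61 ± 0.04 with sgRNA 15 and 1.67 ± 0.03 with sgRNA 11. Larp1 fell by 0.57 with sgRNA 15 and 0.69 with sgRNA 11. Larp4, which binds mRNA tails, fell by 0.71 with sgRNA 15 and 1.08 with sgRNA 11, and Cnbp, which binds TOP mRNAs, fell by 0.46 with sgRNA 15 and 0.56 with sgRNA 11. In a list of 9 genes that act on unassembled ribosomal proteins or respond to them, 3 rose and 5 fell with each guide. Cdkn1a and Zmat3, both Trp53 targets, rose by 0.36 and 0.45 with sgRNA 15 and by 0.80 and 0.67 with sgRNA 11. The ubiquitin ligases Ube2o and Huwe1 fell by 0.66 and 0.32 with sgRNA 15 and by 0.54 and 0.30 with sgRNA 11.

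Outside the members, the genes whose log2 CPM followed the mean of the core genes most closely over the 9 libraries were S100a6 (Pearson correlation 0.99), Apobr (0.99), CAAA01147332.1 (0.98), Ifitm3 (0.98) and Gm11361 (0.98). Gm11361 shares 69.7% of its 50-base stretches with other transcripts, Rps18 first among them, so it is no separate example. These values describe the libraries and were chosen for their likeness.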

How the data were processed

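The authors' deposited files hold raw counts of reads per gene, 1 table per library. Per the submitters' processing notes, STAR, HTSeq and the mm10 genome were used; versions, strand setting and annotation are not stated. HTSeq's tallies of unassigned reads stayed out of library sizes and tests. Per the labels' protocols, RNA was poly(A)-enriched and depleted of ribosomal RNA.

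The test was edgeR 4.0.16 (R 4.3.3). filterByExpr with a minimum count of 10 kept 13453 genes, TMM factors were 0.979 to 1.02, and a robust quasi-likelihood fit to all 9 libraries left 6 residual degrees of freedom. F tests were 2-sided and adjusted by Benjamini-Hochberg over all tested genes; values in parentheses after a log2 fold change ± SE are these adjusted p-values, with a threshold of 0.05. CPM values are TMM-scaled. The labels do not say that replicates were separate cultures, so p-values measure the spread between these libraries, which may be technical; no replicate pair agreed within sampling noise. Positions, overlaps and transcripts came from GENCODE M21 of the same build, with the principal protein-coding transcript as the main one.

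The members and all lists were chosen with earlier results of these data known. Named were the 4 highest and 4 lowest called core genes of each comparison at a mean of at least 5 CPM, every paralog with its partner, a few genes of known role, opposite calls, extremes of level, up to 4 genes of each other list by smallest p, and the 5 closest genes by correlation. Some genes that this rule or the lists name, and 1 alternative that needs them, are not reported here. Rps15a, Rps20, Rps3, Rpl26 and Rpl35 were added with their values known.

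The other settings tried were DESeq2 1.42.0, limma-voom (limma 3.58.1), other scalings, GC and length offsets, other filters on low counts, a replicate block, a fit of the compared groups alone, and each library left out in turn; limiting the members to those with little exon overlap was added after seeing the data.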

Additional observations from a re-analysis of the deposited data

Results flagged for a closer look

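The response of many members differed between the guides, which the direct test of sgRNA 15 against sgRNA 11 measured (adjusted p under 0.05, edgeR); 61 of 83 members were lower with sgRNA 15 and 0 higher. Differences below are log2 values. In the large subunit and stalk they were -0.32 for Rpl23a, -0.29 for Rpl13a, -0.18 for Rplp2, -0.18 for Rplp1, -0.17 for Rpl22, -0.16 for Rplp0, -0.15 for Rpl11, -0.15 for Rpl8, -0.14 for Rpl36a, -0.14 for Rpl7a, -0.11 for Rpl3, -0.10 for Rpl17, -0.09 for Rpl7, -0.09 for Rpl27 and -0.07 for Rpl21. In the small subunit they were -0.43 for Rps21, -0.27 for Rps29, -0.22 for Rps2, -0.17 for Rpsa, -0.16 for Rps18, -0.15 for Rps26 and -0.07 for Rps4x. Among the paralogs they were -0.28 for Rpl22l1, -0.25 for Rps27rt, -0.11 for Rps27l and -0.09 for Rpl7l1. The call for Rpl21 ended without sgRNA 11 replicate 1 (-0.07, adjusted p = 0.0564) or without sgRNA 15 replicate 1 or 2 (-0.08, 0.0515, and -0.06, 0.103) and with DESeq2 (-0.07, 0.0674), that for Rpl27 without sgRNA 11 replicate 3 (-0.06, 0.0538) and with GC and length offsets, where it was -0.03 (0.271) and, with the replicate block added, -0.029 (0.245), and that for Rps27rt under 7 alternatives, of which 5 left out a library (-0.21 to -0.26, adjusted p 0.0556 to 0.133).

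Outside the members, the difference was -0.20 for Fau, -0.14 for Rack1, -0.20 for Eef2, -0.07 for Eef1a1, -0.44 for Cdkn1a, -0.22 for Zmat3 and -0.39 for Slc12a9. It was positive for Ncl (0.25), Nop58 (0.26), Ddx21 (0.13), Heatr3 (0.12), Tnpo1 (0.19), Cct4 (0.11), Cnbp (0.10), Larp1 (0.12) and Larp4 (0.37). With 3 libraries a group, no single library was tested for standing apart.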

How the results depend on the processing

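The counts of members that rose or fell and their medians kept their direction under every alternative, and 208 of 222 recomputed values stayed within 1.5 times the count or within the spread between libraries. With each library left out in turn, risen members ranged from 39 to 53 with sgRNA 15 and from 61 to 71 with sgRNA 11, fallen ones from 9 to 12 and from 4 to 5, and members lower with sgRNA 15 than with sgRNA 11 from 54 to 67, with 0 higher; medians ranged from 0.09 to 0.14, 0.24 to 0.28 and -0.16 to -0.13. Limited to the 8 members with a copy share of 10% or less, 4 rose and 3 fell with sgRNA 15 (median 0.20), 5 rose and 2 fell with sgRNA 11, and 5 were lower with sgRNA 15 than with sgRNA 11. Of all tested genes, 32.2% rose and 30.7% fell with sgRNA 15, and 33.3% and 32.4% with sgRNA 11. Falls thus weighed more against rises than over all members, and the sgRNA 15 median moved from 0.11 by more than the spread between libraries. Nothing is read from counts of so few genes. With core genes only, 6 fell with sgRNA 15 and 2 with sgRNA 11. The replicate numbers did not pair the libraries (correlations of same-numbered libraries -0.01 to 0.06); with the replicate block 50 rose and 11 fell with sgRNA 15, 69 and 5 with sgRNA 11, and 0 and 68 between the guides, and the block with GC and length offsets gave 1 member higher with sgRNA 15 than with sgRNA 11. The share of counts was 6.56% with sgRNA 11 and 5.41% with safe sgRNA without mitochondrially encoded genes, and 0.615% with sgRNA 15, 0.670% with sgRNA 11 and 0.568% with safe sgRNA for the members with a copy share of 10% or less. Rpl8 with sgRNA 11 turned to -0.039 with GC and length offsets and to -0.040 with the block added; the cause was not tested. No scaling moved the median of all genes by more than 0.04. Members below about 10 CPM (Rps10, Rpl36al, Rpl3l) rest on few reads.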
